A study of Mus musculus with 10 samples.

Results

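Mast cells are resident cells of the dermis whose granules hold proteases and histamine, and 9 genes linked to them were followed here in cheek skin after an injection of MMP9. The 9 were chosen by symbol: the chymase genes Cma1 and Mcpt4, the tryptase genes Tpsb2 and Tpsab1, the carboxypeptidase gene Cpa3, the IgE receptor genes Ms4a2 and Fcer1a, the histidine decarboxylase gene Hdc and the receptor gene Mrgprb2. A row was found for 8 of them among the 18994 genes of the deposited table. Tpsab1 was not analysed here. RefSeq annotates it in the C57BL/6J reference as a transcribed pseudogene, and C57BL/6 mice are known to make no functional tryptase from it.

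The study compared C57BL/6 mice aged 6 to 8 weeks, 5 given MMP9 and 5 given vehicle. Their cheek hair was shaved 3 days earlier, and 5 µL was injected into the skin of the right cheek, with 1 µg MMP9 (matrix metalloproteinase 9, a secreted gelatinase) or with vehicle only. Cheek tissue was taken after 4 hours, and its mRNA was sequenced. Each library is a separately numbered mouse. The mice of both groups were healthy, with no engineered allele named, and neither sex nor the vehicle's composition is given in the sources used here. Libraries held between 17121541 and 19443099 estimated reads. The summed level of 6 hair shaft keratin genes was 2.18 CPM in vehicle mouse 2 and 3.26 CPM in MMP9 mouse 1, against 341 CPM or more in the other 8 libraries, and MMP9 mouse 4 had the lowest scaling factor, 0.843, against 0.993 to 1.05 in the other libraries.

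Mast cells arise from blood-forming progenitors and mature in the tissue under KIT ligand. When antigen links IgE bound to the high-affinity receptor FceRI, or when a basic peptide engages MRGPRB2, the granules are released within minutes, and histamine, tryptase and chymase act on vessels, nerves and matrix. The mast cells of mouse skin are of the connective tissue type, marked by Mcpt4, Cma1, Tpsb2, Cpa3 and Mrgprb2, whereas mucosal mast cells carry Mcpt1 and Mcpt2.

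The 5′ flanks of these member genes are shown first, because GATA factors are known regulators of mast cell genes. RefSeq's promoter table (build GRCm38.p6, an earlier build than the GRCm39 named for the deposited values) held 7 of the 9 genes, all but Tpsb2 and Tpsab1. The 250 bases before each annotated start were searched on both strands for 6 short words. The GATA words, which GATA factors are known to bind, were AGATAA and the same word with G as its last letter, written AGATAG. Those that start with T instead were counted as GATA words too, namely TGATAA and likewise the form that ends in G, TGATAG. The E-box words, of the kind the factor MITF binds, were CATGTG and also the fully symmetric form of that box, CACGTG. No 2 of these matches overlap in the flanks printed. Capitals mark the matches, and a match on the opposite strand shows as its reverse complement. The 4 flanks printed are those of both chymase genes, of Cpa3 and of Ms4a2, all on the minus strand: Cma1 at chr14:55944676-55944925, Mcpt4 at chr14:56062311-56062560, Cpa3 at chr3:20242182-20242431 and Ms4a2 at chr19:11623720-11623969.
Cma1: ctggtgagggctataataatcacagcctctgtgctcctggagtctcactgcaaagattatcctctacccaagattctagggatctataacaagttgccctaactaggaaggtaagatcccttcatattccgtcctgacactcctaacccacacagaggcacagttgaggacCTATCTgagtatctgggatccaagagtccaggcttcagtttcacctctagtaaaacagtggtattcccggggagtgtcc
Mcpt4: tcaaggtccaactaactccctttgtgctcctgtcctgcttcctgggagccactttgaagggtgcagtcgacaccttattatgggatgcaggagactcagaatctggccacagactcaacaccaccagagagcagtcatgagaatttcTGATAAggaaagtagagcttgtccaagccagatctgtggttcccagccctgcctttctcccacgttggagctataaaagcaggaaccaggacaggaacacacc
Cpa3: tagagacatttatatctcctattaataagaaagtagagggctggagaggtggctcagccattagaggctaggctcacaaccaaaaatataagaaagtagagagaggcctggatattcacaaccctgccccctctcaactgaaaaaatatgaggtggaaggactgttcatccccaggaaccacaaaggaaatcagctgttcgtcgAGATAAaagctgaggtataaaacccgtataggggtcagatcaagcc
Ms4a2: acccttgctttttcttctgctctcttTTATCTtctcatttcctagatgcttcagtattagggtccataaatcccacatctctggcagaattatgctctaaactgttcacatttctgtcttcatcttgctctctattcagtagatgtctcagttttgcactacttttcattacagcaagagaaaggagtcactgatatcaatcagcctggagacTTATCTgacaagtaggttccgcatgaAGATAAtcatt

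A GATA word was present in 7 of the 7 member flanks. Of all 32851 flanks of the same length in the table, 26.5% held at least 1 of these words. Cpa3 has AGATAA from 46 to 41 bases before its start, and Ms4a2 has the same word from 11 to 6 bases before its start and again on the opposite strand from 37 to 32 bases and from 224 to 219 bases before it. The words lie on the opposite strand in Cma1 (AGATAG, 79 to 74 bases before the start) and on the gene's own strand in Mcpt4 (TGATAA, 103 to 98 bases). Hdc, whose level followed the other genes least, also holds one, TGATAG from 221 to 216 bases before its start. An E-box word was found in 1 of the 7, as CATGTG in Fcer1a, against 17.6% of all flanks. These are matches of letters, and binding was not measured. Whether these words have a part in the variation of the members between mice was not tested.

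By TPM, a scale that corrects for transcript length, the granule protease genes were the most abundant members. Mcpt4 averaged 205 TPM over the 10 libraries, Cma1 105, Cpa3 83.3 and Tpsb2 69.2, followed by Hdc at 12.3, Mrgprb2 at 5.36, Ms4a2 at 2.09 and Fcer1a at 0.926 TPM. Mcpt4 lay above Cma1, and Tpsb2 above Hdc, in 10 of 10 libraries. Cma1 lay above Cpa3 in 9 of 10 and Cpa3 above Tpsb2 in only 7 of 10, so the order of the latter pair did not hold from mouse to mouse. Hdc lay above Mrgprb2 and Mrgprb2 above Ms4a2 in 10 of 10, and Ms4a2 above Fcer1a in 9 of 10.

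The level of these transcripts after MMP9 answers the design's only comparison, and no member passed the test. With edgeR's quasi-likelihood test, 0 of 8 members had an adjusted p (Benjamini-Hochberg) under 0.05, as did 0% of the 15250 genes tested, and adjusted p-values of the members ran from 0.981 to 0.997. At an unadjusted p under 0.05, 1 member (Ms4a2, higher in MMP9) was found. Of all tested genes 3.19% met that limit, and 2.07% did so with the higher level in MMP9. The log2 fold change was above 0 for 7 of 8 members and for 53.7% of all tested genes. Its median was 0.48 over the members and 0.01 over all tested genes. No member separated the groups, so 0 of 8 had all MMP9 libraries above or below all vehicle libraries, which 0.564% of tested genes did. The median of the members went to 0.25 without vehicle mouse 3 and to 0.29 without MMP9 mouse 4.

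Chymases cleave angiotensin, matrix and protease precursors, and both chymase genes were lowest in the same vehicle library. Mcpt4 (Entrez gene 17227) stood at 167, 124, 54.5, 269.7 and 257 TPM in vehicle mice 1 to 5 and at 185, 243, 288, 200.1 and 256 TPM in MMP9 mice 1 to 5. By TPM, vehicle mice 1, 2 and 3 lay below every MMP9 library, and vehicle mice 4 and 5 lay above all MMP9 libraries but mouse 3. On the CPM scale the means were 99.4 ± 51.6 in vehicle and 140.4 ± 28.0 in MMP9 (SD, n = 5), and the log2 fold change was 0.50 (SE 0.36, 95% interval -0.28 to 1.28, edgeR adjusted p 0.981). Cma1 (Entrez gene 17228) stood at 79.4, 54.6, 28.0, 138 and 156 TPM in the vehicle mice and at 86.3, 118, 146, 109 and 130.2 TPM in the MMP9 mice. Here too vehicle mice 1, 2 and 3 were below every MMP9 library by TPM, and vehicle mouse 5 was the highest of all. In CPM, which is scaled otherwise, vehicle mouse 1 (50.9) was level with MMP9 mouse 1 (50.3). The log2 fold change of Cma1 was 0.46 (SE 0.39).

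**Figure D1:**
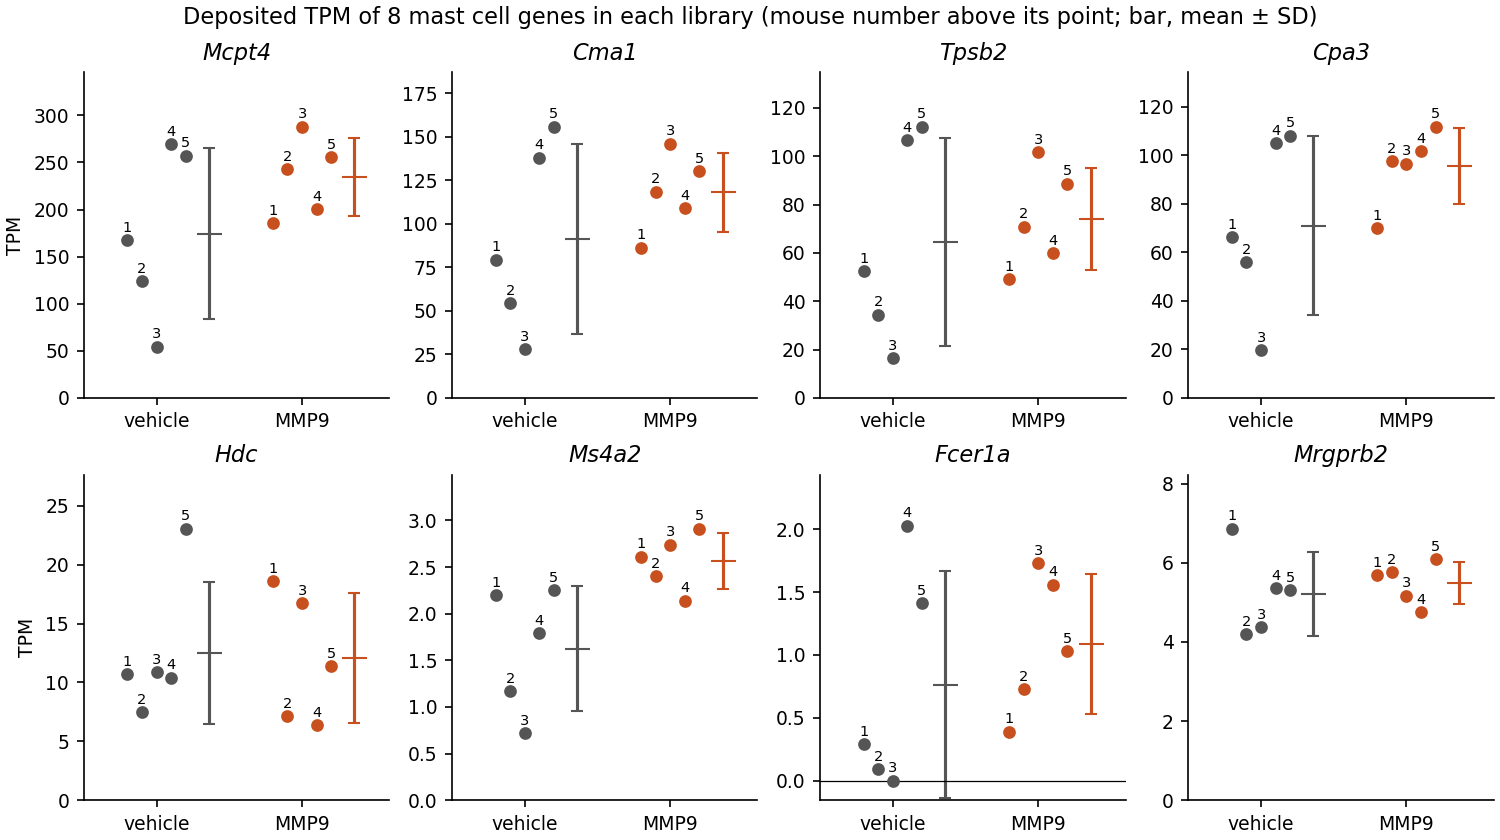
Deposited TPM of the 8 measured genes (vertical axes, each starting at or just below 0) in vehicle and MMP9 libraries; each point is 1 mouse with its number, and the bar gives the group mean ± SD (n = 5). The groups overlap in every panel, and vehicle mouse 3 is the lowest library for Mcpt4, Cma1, Tpsb2, Cpa3, Ms4a2 and Fcer1a.

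Tryptases are stored as tetramers with heparin and can cleave the receptor PAR2. The tryptase gene Tpsb2 (Entrez gene 17229) had 52.5, 34.4, 16.4, 106 and 112 TPM in the vehicle mice and 49.2, 70.8, 102, 59.9 and 88.7 TPM in the MMP9 mice. Both ranges were wide, and 2 vehicle libraries (mice 4 and 5) exceeded every MMP9 library. The log2 fold change of Tpsb2 was 0.27 (SE 0.45), and it went to 0.02 without vehicle mouse 3 and to 0.55 without vehicle mouse 5. Reads were 50 bases long, and 0% of the 50-base windows of Tpsb2 transcripts in the GENCODE annotation also occur exactly in transcripts of another gene, Tpsab1 included. Such windows made up 5.38% in Cma1, shared with Gm48934, 5.48% in Mcpt4, shared with the chymase-like gene Cma2, and 2.1% in Ms4a2, shared with Ms4a4b, so a small part of these genes' reads is uncertain.

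Cpa3 encodes the carboxypeptidase that trims peptides beside chymase, and it followed the chymase genes. Its TPM values (Entrez gene 12873) were 66.3, 56.0, 19.8, 105 and 108 in the vehicle mice and 69.9, 97.6, 96.6, 102 and 112 in the MMP9 mice. By TPM, MMP9 mouse 5 was the highest and vehicle mouse 3 the lowest of all libraries. The CPM means were 60.4 ± 31.1 and 87.3 ± 27.9 (SD, n = 5), and the log2 fold change was 0.53 (SE 0.39, 95% interval -0.32 to 1.38, edgeR adjusted p 0.981).

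Ms4a2 encodes the beta subunit of FceRI, which amplifies its signal, and its log2 fold change was the largest of the members in edgeR's fit of all libraries. It was not in several alternatives: limma-voom gave 0.79 for Ms4a2 and 1.47 for Fcer1a, and log2(TPM + 1) gave 0.48 for Ms4a2 and 0.62 for Cpa3. It stood (Entrez gene 14126) at 2.20, 1.17, 0.72, 1.79 and 2.25 TPM in the vehicle mice and at 2.61, 2.40, 2.74, 2.14 and 2.91 TPM in the MMP9 mice. MMP9 mouse 4 lay below vehicle mice 1 and 5 by TPM, and the other 4 MMP9 libraries lay above every vehicle library. In CPM the means were 2.56 ± 1.04 and 4.18 ± 0.581 (SD, n = 5), and all 5 MMP9 libraries lay above the vehicle mean, but MMP9 mouse 1, at 3.52, lay below vehicle mouse 1, at 3.57. This gave a log2 fold change of 0.71 (SE 0.28, 95% interval 0.09 to 1.32). Its edgeR p was 0.0273 before and 0.981 after adjustment over all genes. The unadjusted p was 0.05 or more without vehicle mouse 2, MMP9 mouse 4 or MMP9 mouse 5.

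Fcer1a encodes the IgE-binding alpha subunit of the same receptor and was close to the limit of detection. Its estimated counts (Entrez gene 14125) were 3, 1, 0, 22 and 16 in the vehicle mice and 4, 8, 19, 20 and 11 in the MMP9 mice. The 0 in vehicle mouse 3 allows up to 0.165 CPM, the level of 3 counts, a limit that covers counting error only. Vehicle mice 4 and 5 were at 1.21 and 0.802 CPM and the other 3 vehicle libraries at 0.170 CPM or less, while MMP9 libraries ran from 0.207 to 1.39 CPM. The log2 fold change was 0.62 (SE 0.81), with a 95% interval as wide as -1.16 to 2.39. It was 0.25 without MMP9 mouse 4, 0.30 without vehicle mouse 3, 0.33 without vehicle mouse 2, 1.36 without vehicle mouse 4, 0.94 without vehicle mouse 5 and 1.47 with limma-voom. The gamma subunit gene Fcer1g, which many myeloid cells also express, was at 133 ± 60.4 CPM in the vehicle mice and 139 ± 30.5 CPM in the MMP9 mice (SD, n = 5). It lies outside the naming rule and was chosen after its values were seen.

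Hdc makes histamine from histidine, and its level showed no difference larger than the spread between mice. Hdc (Entrez gene 15186) had 10.7, 7.46, 10.9, 10.4 and 23.1 TPM in the vehicle mice and 18.6, 7.15, 16.8, 6.40 and 11.4 TPM in the MMP9 mice. Vehicle mouse 5 was the highest library and MMP9 mouse 4 the lowest by TPM, and vehicle mouse 3, the lowest for the proteases, was in the middle. The log2 fold change was -0.03 (SE 0.32, 95% interval -0.72 to 0.66, edgeR adjusted p 0.997), and it was 0.29 without vehicle mouse 5. Mrgprb2, the receptor through which basic secretagogues act on mast cells without IgE, varied least among the vehicle mice (coefficient of variation 21.2%). It stood (Entrez gene 243979) at 6.86, 4.19, 4.38, 5.36 and 5.31 TPM in the vehicle mice and at 5.69, 5.77, 5.17, 4.75 and 6.10 TPM in the MMP9 mice. By TPM, vehicle mouse 1 was the highest library and vehicle mouse 2 the lowest. For Mrgprb2 the log2 fold change was 0.14 (SE 0.17), and the 95% interval, from -0.23 to 0.51, covers folds from 0.854 to 1.43.

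**Figure D2:**
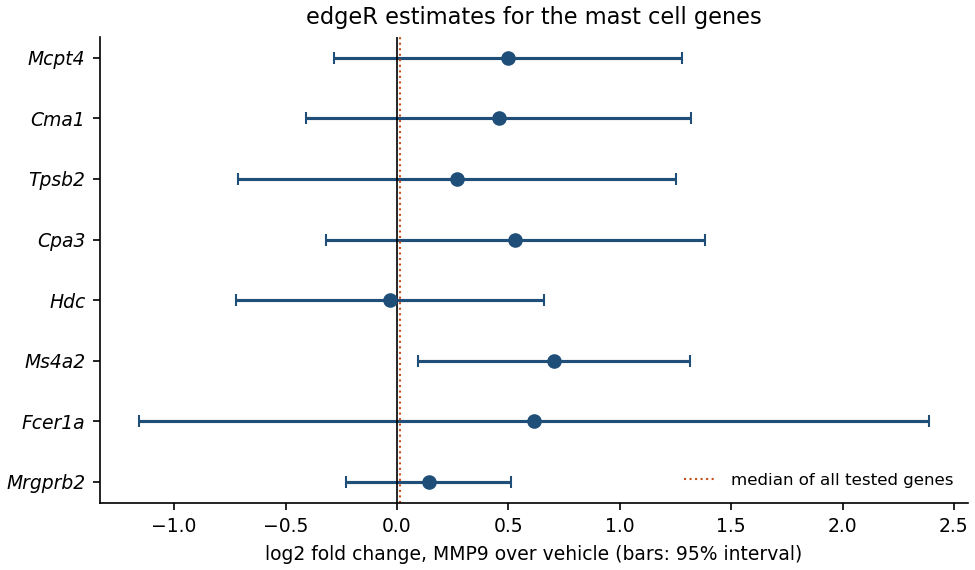
edgeR log2 fold changes, MMP9 over vehicle (horizontal axis), for the 8 genes (rows), with 95% intervals; the dotted line is the median of all tested genes at 0.01. The interval excludes 0 for Ms4a2 before adjustment (0.09 to 1.32) and covers it for the other 7, and it is widest for Fcer1a.

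The spread between mice was larger in the vehicle group. For 8 of 8 members the coefficient of variation of CPM was smaller in MMP9, which held for 37.4% of all tested genes, and by TPM for 8 of 8 against 23.9%. For Mcpt4 it was 51.9% among vehicle mice against 20.0% among MMP9 mice, and for Cma1 59.0% against 25.1%. The vehicle spread rested in part on mouse 3. Without that library it was 34.4% for Mcpt4, 43.9% for Cma1 and 31.3% for Cpa3, the last against 32.0% in the MMP9 mice, and for Hdc it was 51.5% against 46.5% with it. The spread was then smaller in MMP9 for 7 of 8 members by CPM (35.5% of all genes) and for 8 of 8 by TPM (22.9%). The difference in spread was not tested. Members that vary together across mice are not separate observations, here or in the count of fold changes above 0.

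Vehicle mouse 3 was lowest for 6 of 8 members in both CPM and TPM. The median of the other vehicle libraries was 3.85 times its level for Mcpt4, 3.94 times for Cma1, 4.37 times for Cpa3, 4.92 times for Tpsb2 and 2.69 times for Ms4a2. For Mrgprb2 this ratio was 1.22 and for Hdc 0.985. In vehicle mouse 3 the summed dendritic, macrophage, adipocyte and fibroblast markers were also the lowest of all libraries. Skin pieces with fewer mast cells, pieces of a different make-up in other cells and mast cells with less RNA per cell cannot be told apart in such bulk samples. At the other end, MMP9 mouse 4 was highest for 6 of 8 members in CPM but for 0 of 8 in TPM, so its rank rests on the scaling of that library.

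**Figure D3:**
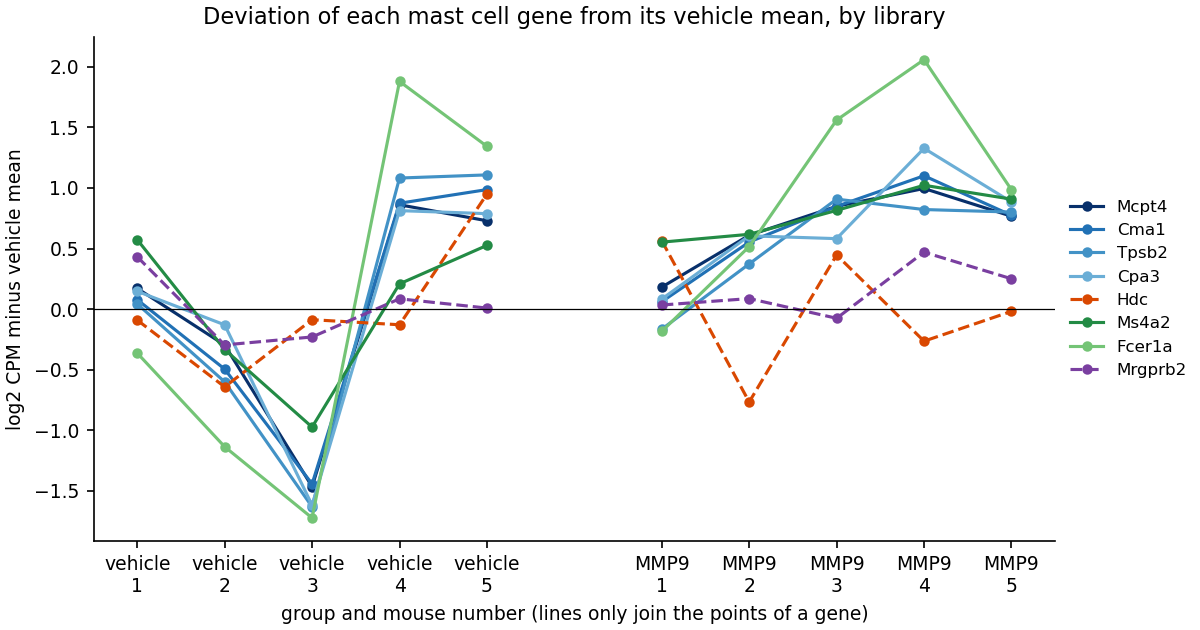
Log2 CPM of each gene minus its vehicle mean (vertical axis) in each library (horizontal axis, group and mouse number); solid lines are protease and IgE receptor genes, dashed lines Hdc and Mrgprb2. The solid lines are all lowest in vehicle mouse 3, those of the 4 proteases and Fcer1a are high in vehicle mice 4 and 5 and in MMP9 mice 3, 4 and 5 while Ms4a2 is at only 0.21 in vehicle mouse 4, and vehicle mouse 3 is not the lowest library for Hdc or Mrgprb2.

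The 4 protease genes and Fcer1a varied together across mice. Over the 10 libraries, Pearson's r of log2 CPM was 0.99 between Cma1 and Mcpt4 (Spearman's rho 0.92; permutation p 2e-05 and 0.00069; adjusted over 28 pairs 0.00014 and 0.0048), and it was 0.97 without the 2 libraries farthest from the Cma1 median. With both group means removed r was 0.99. For the 10 pairs among Cma1, Mcpt4, Tpsb2, Cpa3 and Fcer1a, r ran from 0.90 to 0.99 and rho from 0.77 to 0.99, and all 10 passed by permutation at an adjusted p of 0.05 for both measures. Leaving out the 2 farthest libraries gave r from 0.77 to 0.97 for these 10 pairs. All genes of a library share its depth and scaling.

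Ms4a2 was less tightly tied to them. Its r with these 5 genes ran from 0.76 to 0.90 (permutation p adjusted 0.0059 to 0.014), but rho ran from 0.38 to 0.68 (permutation p adjusted 0.076 to 0.39), and without the 2 farthest libraries r lay between 0.04 and 0.56, so the relation of Ms4a2 with these genes rests on those libraries. Without vehicle mouse 3 alone it lay between 0.56 and 0.72. Mrgprb2 correlated with Ms4a2 (r 0.72, rho 0.72; permutation p 0.016 and 0.023, adjusted 0.029 and 0.059), and r was 0.40 without the 2 farthest libraries. None of the 7 pairs with Hdc passed, with r from -0.03 to 0.30 (permutation p adjusted 0.52 to 0.93) and rho from -0.21 to 0.27 (permutation p adjusted 0.57 to 0.97).

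**Figure D4:**
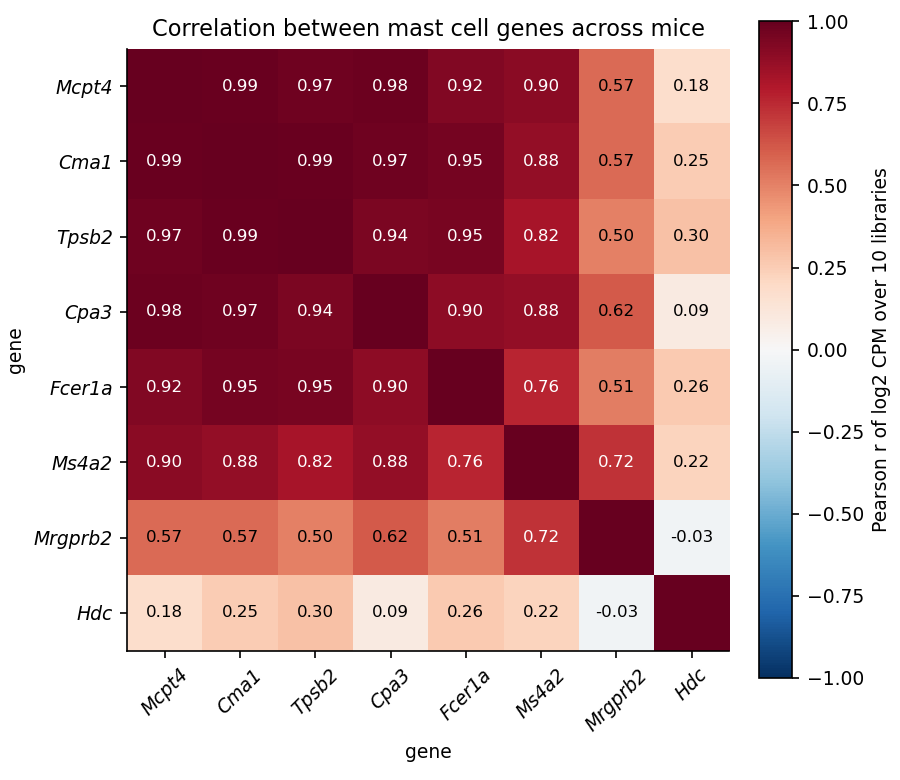
Pearson's r of log2 CPM over the 10 libraries between each pair of the 8 genes (rows and columns), with the value in each cell and the colour scale from -1 to 1. The block of Mcpt4, Cma1, Tpsb2, Cpa3 and Fcer1a lies between 0.90 and 0.99, Mrgprb2 is intermediate, and Hdc lies between -0.03 and 0.30.

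Relative to Cpa3 in the same library, the other proteases varied less than Fcer1a, Hdc and Mrgprb2. Mcpt4 was at 197% to 298% of the Cpa3 TPM over the 10 libraries and Cma1 at 97.4% to 151%. The log2 ratio of Cma1 to Cpa3 averaged 0.33 ± 0.23 over vehicle mice and 0.30 ± 0.18 over MMP9 mice (SD, n = 5), and that of Mcpt4 averaged 1.31 ± 0.12 and 1.29 ± 0.23. Tpsb2 ran from 59.0% to 105% of Cpa3, with log2 ratios of -0.25 ± 0.31 and -0.40 ± 0.31. The proportions of Fcer1a, Hdc and Mrgprb2 were looser, with SDs of the log2 ratio over all libraries of 1.16 (without the library at 0), 0.93 and 0.69. This SD was 0.17 for Mcpt4, 0.20 for Cma1, 0.30 for Tpsb2 and 0.38 for Ms4a2. Fcer1a ran from 0% of the Cpa3 level in vehicle mouse 3 to 1.93% in vehicle mouse 4. Hdc stood at 55.1% of the Cpa3 level in vehicle mouse 3 and at 6.30% in MMP9 mouse 4, and Mrgprb2 at 22.2% in vehicle mouse 3 and between 4.67% and 10.3% in the other 9 libraries. Ms4a2 stood between 1.70% and 3.73%. The groups overlapped in each of these ratios, which were not tested.

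Among the 14614 other genes of at least 1 CPM, the pattern of the members over the 10 libraries, with group means removed, was most closely matched by Colec12 (Entrez gene 140792), a scavenger receptor gene, at r = 0.98. Mrgprb1 (Entrez gene 233231), a relative of Mrgprb2, followed at 0.97. Vehicle mice had 7.85 ± 3.49 CPM of Mrgprb1 and MMP9 mice 10.9 ± 3.20 CPM (SD, n = 5). The growth factor gene Igf1, the complement protease gene C1s1, the Fc receptor gene Fcgr2b, the matrix gene Ccdc80, the transferrin gene Trf, H2-DMb1 of the antigen-presentation pathway, the leukocyte tetraspanin gene Cd53 and the glypican gene Gpc3 completed the 10 genes most alike, with r from 0.94 to 0.97. In all, 52 genes (0.356%) had an r of at least 0.9, and the median over all of them was 0.01. Measured in the same way against the mean of the other 7 members, Cma1 had an r of 0.97, Cpa3 of 0.92, Mrgprb2 of 0.51 and Hdc of 0.23. Kit, the receptor of KIT ligand, which melanocytes also carry, ranked 2071 with an r of 0.45. It is outside the naming rule and was chosen after its values were seen, as were the following matches. The genes closest to Hdc alone were Slfn8 (r = 0.97), Cpsf2, Osm, Trim30c and Ifi203 (r = 0.93), and those closest to Mrgprb2 alone were Asgr2 (r = 0.94), Cldn11, Apoc3, Fbxl13 and Cldn5 (r = 0.93).

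Markers of some other dermal cells varied with Cpa3. These relations were computed after the data were seen, for Cpa3, Hdc and Mrgprb2 only. Over 10 libraries, Cpa3 correlated with the summed CPM of 7 dendritic cell markers, which include MHC class II genes (r 0.94, rho 0.96; permutation p 1e-05 and 8e-05; adjusted over 33 relations 0.00033 and 0.0026; r 0.90 without the 2 farthest libraries), where 1e-05 is the smallest p these permutations can give. The dendritic sum was mostly the class II genes H2-Aa and H2-Ab1, at 600 and 688 CPM on average in vehicle, against 19.9 CPM or less for each other gene. With the pattern of the members, r was 0.94 for H2-Aa and for H2-Ab1. It was 0.83 for Zbtb46, 0.79 for Xcr1, 0.74 for Flt3, 0.33 for Itgax and -0.13 for Cd207. Cpa3 also correlated with 5 adipocyte markers (r 0.83, rho 0.90; permutation p 0.00047 and 0.00097, adjusted 0.0078 and 0.016; r 0.74 without the 2 farthest) and 8 macrophage markers (r 0.84, rho 0.83; permutation p 0.0036 and 0.0045, adjusted 0.039 and 0.05; r 0.82 without the 2 farthest). The other 8 lists did not pass with Cpa3, keratinocyte markers among them (r -0.19, permutation p 0.62, adjusted 0.81), although without the 2 farthest libraries their r was -0.89, and 0 of 11 passed with Hdc or with Mrgprb2. Still, r of Mrgprb2 was 0.79 with adipocyte, 0.70 with fibroblast and 0.68 with dendritic markers (permutation p adjusted 0.057, 0.15 and 0.15). For Hdc these r were -0.05, 0.10 and 0.19. Vehicle mouse 3 had the lowest sums of dendritic (829 CPM, against up to 1919), macrophage (359, against up to 2022), adipocyte (954, against up to 3436) and fibroblast markers (6122, against up to 14702), and the highest sum of hair shaft markers (4547 CPM). By group, the dendritic sum ran from 829 to 1798 in vehicle and from 1454 to 1919 in MMP9, and the macrophage sum from 359 to 2022 and from 775 to 1966. None of these markers was at 0 throughout. Their part in the levels of the mast cell genes was not tested.

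**Figure D5:**
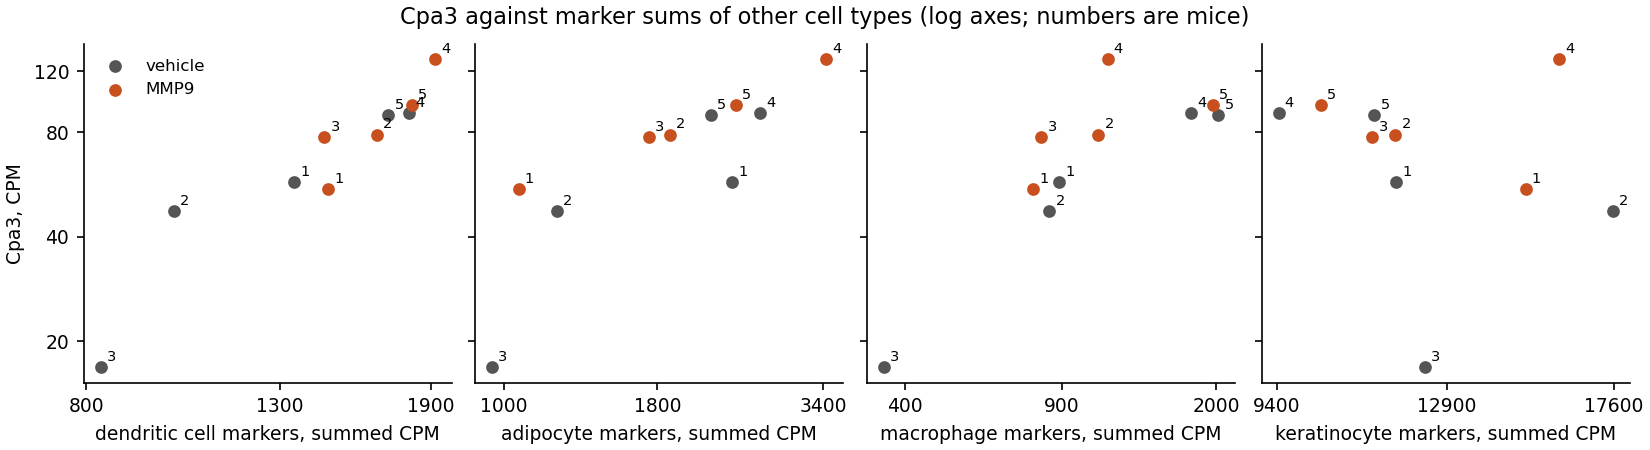
Cpa3 in CPM (vertical log axis) against the summed CPM of dendritic cell, adipocyte, macrophage and keratinocyte markers (horizontal log axes); each point is 1 mouse with its number, coloured by group. Vehicle mouse 3 lies lowest for Cpa3 and for the first 3 marker sums, and Pearson's r is -0.19 with the keratinocyte markers. The dendritic sum is mostly H2-Aa and H2-Ab1.

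Proteases that mark mucosal mast cells and basophils gave few reads. The mucosal mast cell protease genes Mcpt1, Mcpt2 and Mcpt9 gave 18, 2 and 5 reads in the 10 libraries together, and the basophil protease genes Mcpt8 and Prss34 gave 22 and 29, all below the filter on low counts, against 21994 for Mcpt4. The other genes of these marker lists, which further cell types also express, were higher, with 1680 reads for the integrin gene Itgae of the mucosal list and 2882 for Il3ra and 319 for Cd200r3 of the basophil list. Among other relatives, Cma2 had 38 and the cathepsin G gene Ctsg 109. In the list of protease relatives 3 of the 12 genes in the table were tested and 0 passed, with Tpsg1, a membrane-anchored tryptase gene, at 3.37 ± 1.07 and 4.41 ± 1.16 CPM and Gzmb, a granzyme gene, at 2.12 ± 2.13 and 3.46 ± 1.75 CPM (SD, n = 5). Cpa4 was at 94.7 ± 32.2 and 94.7 ± 5.75 CPM.

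None of the other listed genes of the mast cell pathway passed edgeR's test either, higher or lower. In the granule and mediator list, 0 of 12 tested genes passed, 12 of 12 had log2 fold changes above 0, and the median was 0.10. Cd63, a granule membrane protein, was at 228 ± 30.1 and 290 ± 68.4 CPM, and Srgn, which encodes the proteoglycan serglycin that packs proteases in granules, at 92.2 ± 40.7 and 116 ± 30.2 CPM. Hpgds, which makes prostaglandin D2, had a log2 fold change of 0.23. In the IgE receptor signalling list, 0 of 17 passed and 10 were above 0, with a median of 0.03. The adaptor gene Lat was at 4.08 ± 1.20 and 5.54 ± 0.148 CPM, and the adaptor gene Gab2 and the phospholipase gene Plcg2 had log2 fold changes of -0.25 and -0.23. Lat is also a gene of T cells, and the 7 T and NK cell markers found of 10 listed summed to 54.4 to 58.8 CPM in vehicle and 64.6 to 88.1 CPM in MMP9. Neither the difference in this sum nor its part in the level of Lat was tested. Cd3g and Cd247 were the highest of these markers, with means of 20.7 and 14.3 CPM in vehicle and 28.4 and 19.3 CPM in MMP9. Cd3e (7.07 and 7.36 CPM) and Ncr1 (0.408 and 0.404 CPM) differed little between the groups. Log2 fold changes were above 0 for 6 of the 6 markers tested.

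Among exocytosis genes, 0 of 12 passed and 10 were above 0, with a median of 0.13. The syntaxin gene Stx4a was at 76.0 ± 2.00 and 83.9 ± 8.06 CPM (SD, n = 5), with 5 of 5 MMP9 libraries above all vehicle libraries, as in 0.426% of tested genes, and Stx11 and Stxbp2 had log2 fold changes of 0.24 and -0.10. Of 14 identity and growth genes 0 passed, 9 were above 0 and the median was 0.02. The transcription factor genes Gata1 and Tal1 were at 0.552 ± 0.298 and 0.960 ± 0.253 CPM and at 6.22 ± 1.32 and 7.31 ± 0.341 CPM, and the KIT ligand gene Kitl had a log2 fold change of 0.10. Of the 11 surface receptor genes 8 were tested, 0 passed and 6 were above 0, with a median of 0.22. The adenosine receptor gene Adora3 was at 7.17 ± 0.779 and 9.30 ± 1.97 CPM, and Cd200r3, which basophils share, at 1.53 ± 1.04 and 1.95 ± 0.662 CPM.

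Targets of the mast cell products gave 0 of 4 tested genes past the threshold. The histamine receptor gene Hrh2 was at 1.75 ± 0.486 and 2.22 ± 0.650 CPM, the histamine-degrading gene Hnmt at 7.36 ± 1.68 and 8.96 ± 3.34 CPM, and F2rl1, the gene of PAR2, at 45.8 ± 3.27 and 42.2 ± 7.51 CPM (SD, n = 5). Hrh3 (4 reads in all libraries together) and Hrh4 (44 reads) were not tested. Of 23 transcripts that activated mast cells are known to induce, 19 were tested, 0 passed and 11 were above 0, with a median of 0.15. The chemokine genes Ccl4 and Ccl7 were at 4.52 ± 3.03 and 8.58 ± 4.81 CPM and at 69.5 ± 41.9 and 119 ± 71.7 CPM, and the transcription factor gene Egr2 at 63.4 ± 8.67 and 56.5 ± 5.38 CPM. The cytokine genes Il4, Il13, Il2 and Csf2 gave 15, 56, 16 and 74 reads in the 10 libraries together, below the filter. Many of these genes are expressed by other cells of the skin.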

How the data were processed

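The authors deposited 1 table with an estimated count of reads and a TPM value for each gene and library, per the file headers. These estimated counts, as deposited, are not whole in 60.8% of entries and were rounded here. Libraries of oligo(dT)-purified mRNA were read as single ends of 50 bases, per the labels. HISAT and GRCm39 are named in the submitters' processing notes. Program, annotation and strand setting of the quantification were not given in the sources used here.

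Genes were compared with edgeR 4.0.16 (R 4.3.3) on the rounded counts (TMM factors, filterByExpr, quasi-likelihood F test, treatment only, Benjamini-Hochberg over 15250 tested genes, threshold 0.05). 3744 genes were below the filter. CPM values use the TMM factors, and log2 CPM a prior count of 2. Correlations used 100000 permutations. All p-values are two-sided. Alternatives were other scaling factors and filters, limma 3.58.1, DESeq2 1.42.0, the mouse number as a block and leaving out each mouse. The test was checked on simulated counts.

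Members and lists were chosen with earlier results of these data known. All members are named, with the 3 genes of smallest p in each pathway list and the 10 genes most like the members. Marker lists of other cell types are given as sums, and single genes were picked from them with their values known. The labels number the mice in each group without stating a pairing. Neither batch nor date is given in the labels.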

Additional observations from a re-analysis of the deposited data

Results flagged for a closer look

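Hdc reached 32.0 CPM in vehicle mouse 5, set apart from the other 4 vehicle libraries by 0.767 of the group's range, above the limit of 0.71 for 5 samples. Of 29 groups of values examined this was 1, and chance flags about 1 in 20.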

How the results depend on the processing

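Over 21 alternatives, of which 1 (leaving out both libraries almost without hair shaft transcripts) was chosen after seeing the data, 0 members passed. The count of genes called was 0 in each except DESeq2, which called 1 gene, not a member. The cause was not tested. At an unadjusted p under 0.05 DESeq2 had 620 of 18945 genes and limma-voom 462 of 15250. Directions were kept for 7 of the 8 members. Fcer1a had no value with a minimum mean of 1 CPM. Hdc, which ran from -0.19 to 0.29 when 1 mouse was left out, turned positive without vehicle mouse 5 (0.29), MMP9 mouse 2 (0.12) or MMP9 mouse 4 (0.03), and the cause was not tested. Leaving out 1 mouse at a time, the median log2 fold change of the members ran from 0.25 to 0.69, and 7 or 8 members were positive. With limma on log2(TPM + 1) the median was 0.47. With the mouse number as a block the median was 0.65 and 0 genes passed. Libraries of the same number correlated at -0.24, -0.05, 0.46, 0.14 and 0.20. For mice 3 and 5 the vehicle library was best matched by the MMP9 library of its own number. So few values cannot settle whether the numbers pair the mice. Adding 0.1 TPM left the ratios to Cpa3 within their spread. Depth limits Fcer1a most, where 22 reads was the highest count.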
